A study of Homo sapiens with 24 samples.

Results

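The genes described here are 35 genes listed as targets of the p53 pathway, followed through a one-colour array experiment in human neuroblastoma cells. They were chosen by name, and whether p53 switches on each of them in these cells was not tested. A gene counted as a member where the platform's symbol, or its current synonym, was on the list, and all 35 were measured among 17199 named genes. TIGAR and DRAM1 were found under older symbols. The members have 52 probes between them. Each gene is represented by its brightest probe, and the other probes of the 13 members with more than 1 serve as a check.

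Total RNA came from cultures of IMR-32, a neuroblastoma line with an amplified MYCN gene, and of SK-N-AS, a neuroblastoma line in which the MYCN probe was far dimmer. Each line was labelled with either the transgene HOXC9, a homeobox transcription factor, or the control transgene GFP (green fluorescent protein), and with an hour: 0 h, then 6, 12 and 24 h, then 48 and 96 h. Every combination has 1 array, which gives 4 groups of 6 arrays and 24 arrays in all. The labels used here name neither the vector nor the drug or promoter that starts the transgene, nor say whether 0 h precedes its expression or whether the cultures are clones. No hour was repeated, so in every test the hours stand in for replicates and the p-values measure the spread between arrays of different hours, which may be technical. For HOXC9 against GFP, that spread was estimated once per gene over both lines. The SE and p-value given for one line therefore also carry the scatter of the other. All levels below are log2 of the deposited fluorescence intensity, all differences are on that log2 scale, and precision is limited by how many arrays there are.

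p53 is a transcription factor that is kept scarce in unstressed cells by the ubiquitin ligase MDM2 and accumulates after DNA damage, oncogene activity or loss of nucleotides. It then switches on genes that halt the cell cycle, repair DNA, rewire metabolism or prepare cell death, and it switches on MDM2 itself, which closes a negative feedback loop. Many of these targets also answer to other regulators, and neuroblastomas usually keep p53 intact at diagnosis.

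Several arrays stood apart or went against their label. HOXC9 was higher in the HOXC9 arrays of IMR-32, 10.02 ± 0.19 against 5.94 ± 0.26 (SD, n = 5), a difference of 4.08 ± 0.13 (SE; limma, adjusted p = 1.77e-08) that was already 4.16 at 0 h. In SK-N-AS the probe went against the label, at 11.71 ± 0.06 in the HOXC9-labelled arrays and 12.28 ± 0.17 in the GFP arrays (adjusted p = 0.00721), so these are called HOXC9-labelled arrays throughout. Within that SK-N-AS arm the arrays of 6, 12 and 24 h resembled each other (correlation over all genes of at least 0.995) more than those of 0, 48 and 96 h (0.979 to 0.984). In the SK-N-AS GFP arm the same sets correlated at 0.987 to 0.992. MYCN stood at 14.15 to 15.40 in IMR-32 and at 8.37 to 10.25 in SK-N-AS. Of 8 measured noradrenergic neuroblastoma markers, 6 to 8 lay above the median intensity of the array (log2 6.83) in each group and 0 in its lower quartile (below 3.28). Among 8 measured markers of blood, endothelium, epithelium and fibroblasts, PTPRC, DCN and LUM were bright in SK-N-AS (PTPRC 11.78 to 12.85 in the GFP arrays), and the log2 of the summed list was 14.5 to 16.1 there. In IMR-32 0 of the 8 lay above the median in the HOXC9 arrays and 1, EPCAM, did in the GFP arrays, at 15.99 at 12 h against 5.12 to 5.49 at the other hours; the summed list was 6.81 to 7.06 in the HOXC9 arrays and 7.11 to 15.99 in the GFP arrays. The part of these markers in the results below was not tested, and in bulk RNA fewer cells of a type and less RNA per cell cannot be told apart.

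In IMR-32, 6 of the 35 targets were higher and 3 lower with HOXC9 than with GFP over 6 to 96 h, and 26 did not pass the test. RPRM, PERP and PLK2 were the members furthest up, DRAM1, POLH and GADD45A were moderately higher, and TIGAR, GDF15 and GADD45B were lower. Over all 17199 genes, 12.6% were higher and 11.4% lower by the same rule (adjusted p under 0.05 in the limma fit over both lines). The median difference of the members was 0.09, against -0.01 for all genes. All 9 called members had the same sign at each of the 5 hours. The HOXC9 and GFP arrays of 6 to 96 h did not overlap for 13 members, the 9 called ones among them, while 30.7% of all genes had arrays that did not overlap. CDKN1A and MDM2, common readouts of p53 activity, were not among the genes that passed.

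**Figure D1:**
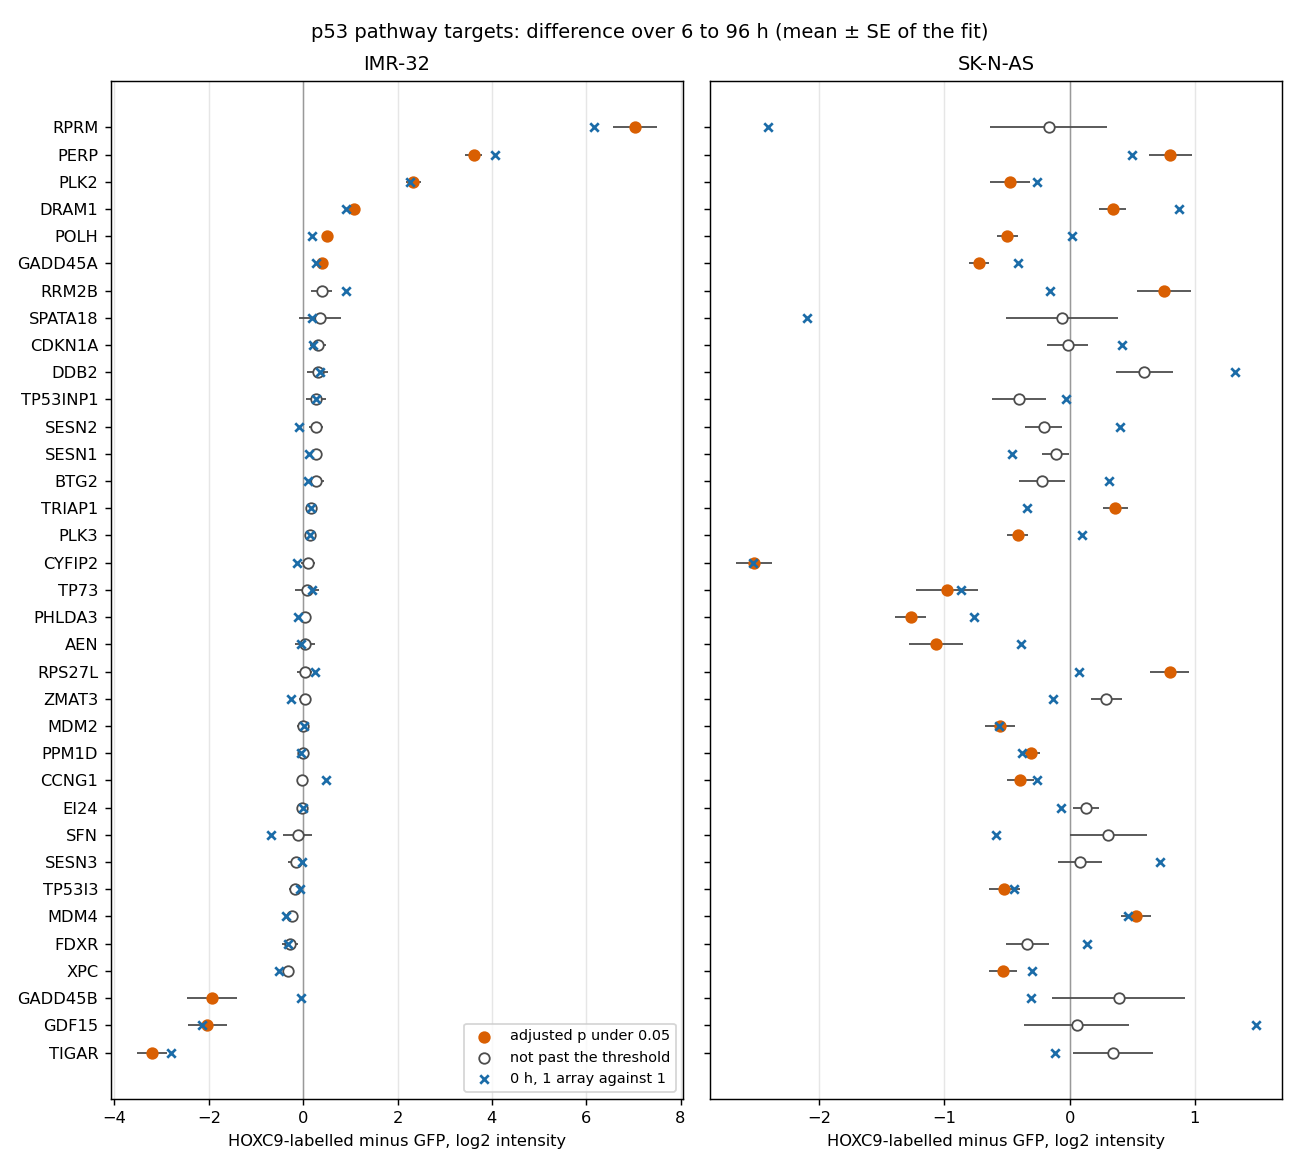
Difference between HOXC9-labelled arrays and GFP arrays (log2 intensity) for the 35 targets in each line, ordered by the IMR-32 value. Circles are the mean over 6 to 96 h with the SE of the fit, filled where the adjusted p is under 0.05, and crosses are the single difference at 0 h. RPRM reaches 7.04 in IMR-32 and CYFIP2 -2.52 in SK-N-AS, and in IMR-32 the crosses of all 9 filled genes lie on the same side of 0 as their circles, that of GADD45B at only -0.05.

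RPRM encodes reprimo, a small protein that holds cells before mitosis. In the IMR-32 HOXC9 arrays RPRM stood at 9.53, 8.81, 9.40, 9.19, 9.22 and 8.77 in the order of the hours, from 0 to 96 h. In the GFP arrays the RPRM levels were 3.36, 0.67, 1.01, 2.04, 3.46 and 3.02 in the same order, near or within the lower quartile of intensities, so the groups were far apart at every hour. The difference was 7.04 ± 0.47 (SE; adjusted p = 3.22e-06), or 131-fold, a size that depends on the lowest intensities. With 50 units added to every intensity before the log it was 3.42, still past the threshold. At 0 h RPRM already differed by 6.16. In SK-N-AS, RPRM ranged from 0.62 to 2.29 in the HOXC9-labelled arrays and from 0.63 to 3.03 in the GFP arrays, at or below the lower quartile in both.

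PERP is a membrane protein of cell contacts that p53 induces during cell death. PERP levels in the IMR-32 HOXC9 arrays were 9.99, 9.57, 10.05, 9.45, 9.50 and 9.40 at the 6 hours. PERP read 5.92, 5.98, 5.87, 6.08, 6.40 and 5.58 with GFP. The arms were separated at all hours with a difference of 3.61 ± 0.17 (adjusted p = 2.74e-07; 12.2-fold), against 4.07 at 0 h. RPRM and PERP were the members furthest up in IMR-32, so their start regions are shown from RefSeq (GRCh38.p14), from 250 bases before to 50 bases after the annotated start, with CpG pairs (CG, the same on both strands) in capitals. RPRM (chr2:153478713-153479012, minus strand) has 30 CpG pairs in 300 bases and PERP (chr6:138107370-138107669, minus strand) has 43. The ratio of observed to expected CpG was 0.858 for RPRM and 0.971 for PERP, against a median of 0.843 for the members with a window and 0.580 for all genes in the table.
RPRM: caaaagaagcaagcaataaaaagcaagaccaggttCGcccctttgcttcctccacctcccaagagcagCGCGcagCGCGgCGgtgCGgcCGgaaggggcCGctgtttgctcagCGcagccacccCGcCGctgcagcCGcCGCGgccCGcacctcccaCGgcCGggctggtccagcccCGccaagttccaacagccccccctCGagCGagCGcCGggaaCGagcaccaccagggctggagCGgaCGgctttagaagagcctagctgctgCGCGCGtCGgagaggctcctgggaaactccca
PERP: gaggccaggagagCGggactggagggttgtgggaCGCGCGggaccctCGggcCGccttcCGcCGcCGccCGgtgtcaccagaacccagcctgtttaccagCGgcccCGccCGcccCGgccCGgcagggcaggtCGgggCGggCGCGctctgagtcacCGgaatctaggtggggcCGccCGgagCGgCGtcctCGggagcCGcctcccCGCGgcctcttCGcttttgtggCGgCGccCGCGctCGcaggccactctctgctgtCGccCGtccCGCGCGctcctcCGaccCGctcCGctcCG

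PLK2, a stress-induced polo-like kinase, was the other target several-fold higher in IMR-32. Its HOXC9 arrays read 9.97, 9.82, 10.04, 9.82, 9.85 and 9.72, and its GFP arrays 7.70, 7.43, 7.54, 7.77, 7.61 and 7.21. No PLK2 value of one arm came near the other, and the difference was 2.34 ± 0.16 (adjusted p = 3.74e-06; 5.05-fold), with 2.26 at 0 h. DRAM1, a lysosomal membrane protein that links p53 to autophagy, read 8.78, 8.62, 8.84, 8.83, 8.78 and 8.78 in the HOXC9 arrays. DRAM1 read 7.88, 7.58, 7.65, 7.84, 7.81 and 7.56 with GFP, lower at each hour. The DRAM1 difference was 1.08 ± 0.11 (adjusted p = 6.34e-05), and its second probe gave 1.08 ± 0.10.

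GADD45A, a stress sensor that binds cell cycle and MAP kinase partners, was 12.99, 12.92, 13.00, 13.06, 12.85 and 12.92 in the HOXC9 and 12.71, 12.56, 12.51, 12.49, 12.53 and 12.68 in the GFP arrays. Although the GADD45A difference is small, 0.40 ± 0.08 (adjusted p = 0.00641), the arms did not overlap. POLH, the DNA polymerase that copies past ultraviolet lesions, read 8.58, 8.81, 8.82, 8.82, 8.68 and 8.61 in the HOXC9 arrays. The GFP arrays of POLH read 8.40, 8.24, 8.26, 8.22, 8.43 and 8.10. Here too the arms were apart, with a difference of 0.50 ± 0.08 (adjusted p = 0.00187). The second POLH probe, dim at a mean of 3.56, gave 0.07 ± 0.34 (adjusted p = 0.919), and the mean of both probes was not past the threshold (0.28, adjusted p = 0.309).

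**Figure D2:**
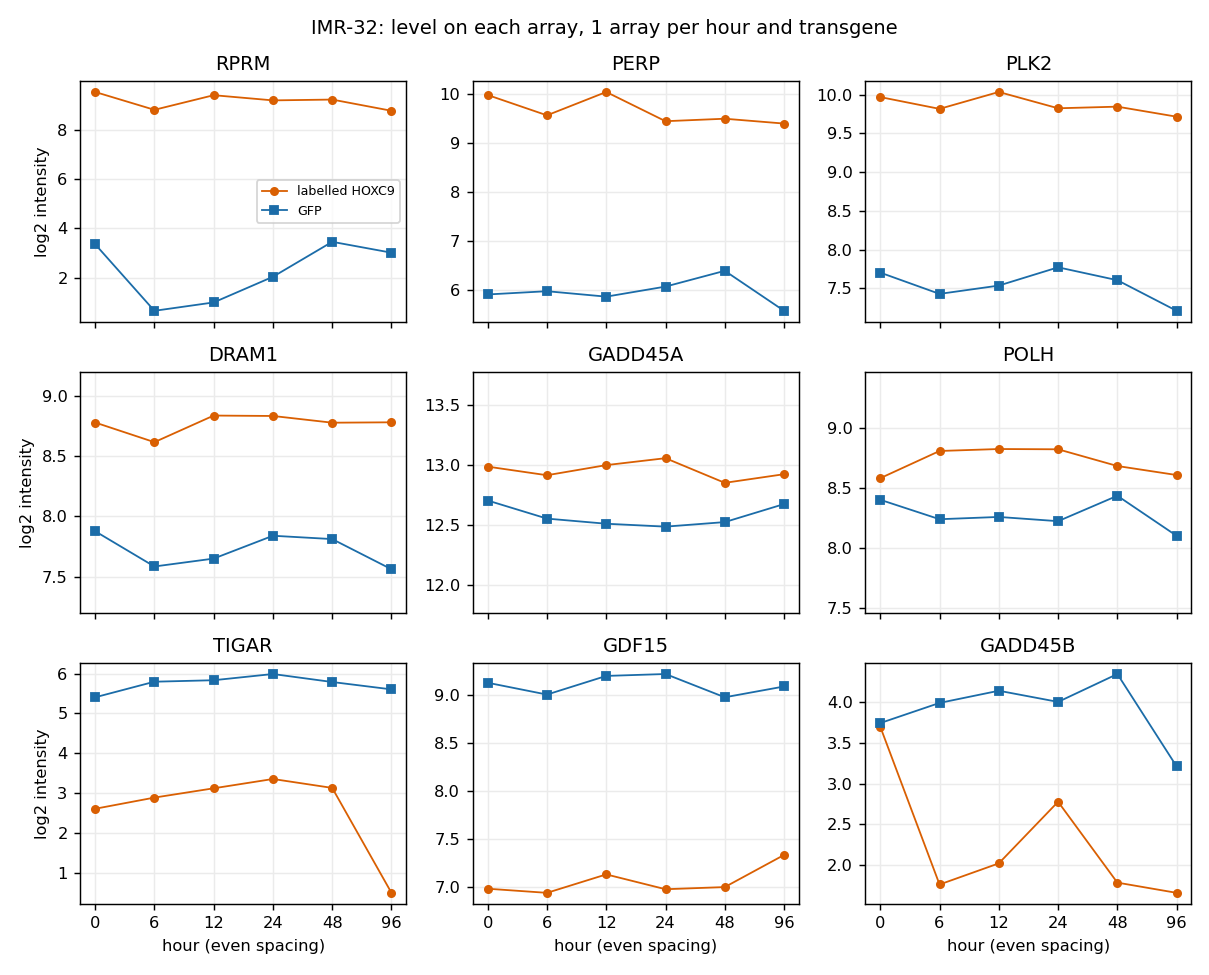
Level of the 9 targets called in IMR-32 on each of the 12 IMR-32 arrays (log2 intensity, vertical axis) against the hour, drawn at even spacing, with 1 array per point. Circles are HOXC9 arrays and squares GFP arrays. The 2 lines stay apart from 6 to 96 h in all 9 panels, and at 0 h they meet only for GADD45B (3.70 and 3.74).

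GDF15, a secreted stress cytokine, went the other way in IMR-32. It stood at 6.98, 6.94, 7.13, 6.97, 7.0 and 7.33 in the HOXC9 arrays. In the GFP arrays GDF15 stood at 9.13, 9.01, 9.20, 9.22, 8.98 and 9.09, about 2 units higher at each hour. The GDF15 difference was -2.03 ± 0.42 (adjusted p = 0.00612), with -2.15 at 0 h. This SE is pooled over both lines. From 6 to 96 h the hourly differences ran from -2.25 to -1.76 in IMR-32 and from -2.08 to 1.40 in SK-N-AS. TIGAR, a phosphatase that lowers the flux through glycolysis, read 2.60, 2.89, 3.12, 3.35, 3.13 and 0.49 in the HOXC9 arrays, mostly in the lower quartile of intensities. The TIGAR levels of the GFP arrays were 5.41, 5.80, 5.83, 5.99, 5.79 and 5.60. All TIGAR values of the HOXC9 arm were below those of the GFP arm and the 96 h array was lowest; the difference was -3.21 ± 0.32 (adjusted p = 5.64e-05). With 50 units added it was -0.89, still past the threshold, and the other probe, at a mean of 4.20, gave -0.75 ± 0.35 (adjusted p = 0.155).

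GADD45B, a relative of GADD45A, is the least secure of the 9. It read 3.70, 1.76, 2.02, 2.78, 1.78 and 1.66 in the HOXC9 and 3.74, 3.99, 4.14, 4.0, 4.35 and 3.21 in the GFP arrays, with equal values at 0 h and lower ones in the HOXC9 arm afterwards. The difference was -1.94 ± 0.53 (adjusted p = 0.0238), but it missed the threshold with 16 units added (-0.65, adjusted p = 0.38) and without the 6, 12, 24 or 96 h arrays in turn (adjusted p up to 0.0949). The other GADD45B probe, at a mean of 6.03, gave 0.46 ± 0.43 (adjusted p = 0.487). Leaving out the 12 h arrays, and with them the one bright for EPCAM, left 6 members higher and 2 lower, with GADD45B the call that was lost.

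Of the remaining IMR-32 targets, none of the feedback regulators of p53 passed the test in the limma fit over both lines. In that limma fit 11 of all 35 members had an unadjusted p under 0.05, as had 36.6% of all genes. MDM2 stood at 7.25 ± 0.10 in the HOXC9 and 7.25 ± 0.10 in the GFP arrays (SD, n = 5), and its difference had an SE of 0.12. MDM4, the MDM2 relative that masks the activation domain of p53, differed by -0.24 ± 0.12 (adjusted p = 0.18), and its arrays did not overlap. PPM1D, a phosphatase that turns off p53 and its upstream kinases, differed by -0.01 ± 0.07, and cyclin G1 (CCNG1), which brings a phosphatase to MDM2, by -0.02 ± 0.11. CDKN1A, the p21 inhibitor of cyclin-dependent kinases, stood at 10.02, 9.95, 9.64, 9.92, 10.16 and 10.30 in the HOXC9 and 9.81, 9.74, 9.58, 9.58, 9.90 and 9.58 in the GFP arrays. CDKN1A was higher at each of the 5 hours but by 0.32 ± 0.17 on average, which did not pass (adjusted p = 0.197). SESN1, a sestrin that restrains growth signalling, differed by 0.27 ± 0.11 at its brightest probe (adjusted p = 0.0958), while its dimmer probe gave 0.52 ± 0.11 (adjusted p = 0.0071). DDB2 (0.31 ± 0.23) and XPC (-0.32 ± 0.11, adjusted p = 0.0607), which find damaged bases for excision repair, had arrays that did not overlap but did not pass. The other 18 members that did not pass lay between -0.28 (FDXR) and 0.39 (RRM2B), with adjusted p from 0.214 (SESN2) upwards. Among them BTG2 (0.27 ± 0.18), TP53INP1 (0.28 ± 0.22) and PLK3 (0.14 ± 0.08) were higher and TP53I3 (-0.18 ± 0.12) and SESN3 (-0.14 ± 0.18) lower in mean, none past the threshold. Some of these misses depend on the fit. Both with the IMR-32 arrays alone and with array weights, BTG2, DDB2, SESN1 and TP53INP1 passed as higher. FDXR, MDM4 and XPC passed as lower in both, and XPC also with 16 or 50 units added. CDKN1A and MDM2 passed in none of these settings.

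In SK-N-AS, 6 targets were higher and 13 lower under the HOXC9 label, and 16 did not pass. CYFIP2, PHLDA3, AEN and TP73 were the lowest relative to GFP, and PERP, RPS27L and RRM2B the highest. Over all genes 20.8% were higher and 21.4% lower, so calls were common in this line. The members' median difference was -0.17, against -0.02 for all genes. The sign was the same at each of the 5 hours for 12 of the 19 called members and the same at 0 h for 15. The arrays of 6 to 96 h did not overlap for 8 members, against 23.4% of all genes. All 8 measured noradrenergic markers differed as well, 3 higher (GATA3, PHOX2A and TH) and 5 lower, and MYCN was higher by 0.80 ± 0.24 in the HOXC9-labelled arrays.

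Much of this rests on the arrays of 6, 12 and 24 h. Without those hours of SK-N-AS, 1 member was higher (DRAM1) and 5 were lower (CYFIP2, GADD45A, PHLDA3, PLK3 and POLH), and over all genes 10.8% were higher and 11.2% lower. Within the arm labelled HOXC9, 24 members had 6, 12 and 24 h arrays that did not overlap those of 0, 48 and 96 h, 9 of them higher and 15 lower, against 60.8% of all genes. Within the GFP arm 6 members did, against 12.6% of all genes. RRM2B was 1.09 higher at 6 to 24 h than at the other hours of that arm, RPS27L 0.86 and TRIAP1 0.68. AEN stood at -1.47 by the same measure, FDXR at -0.79 and SESN2 at -0.77.

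**Figure D3:**
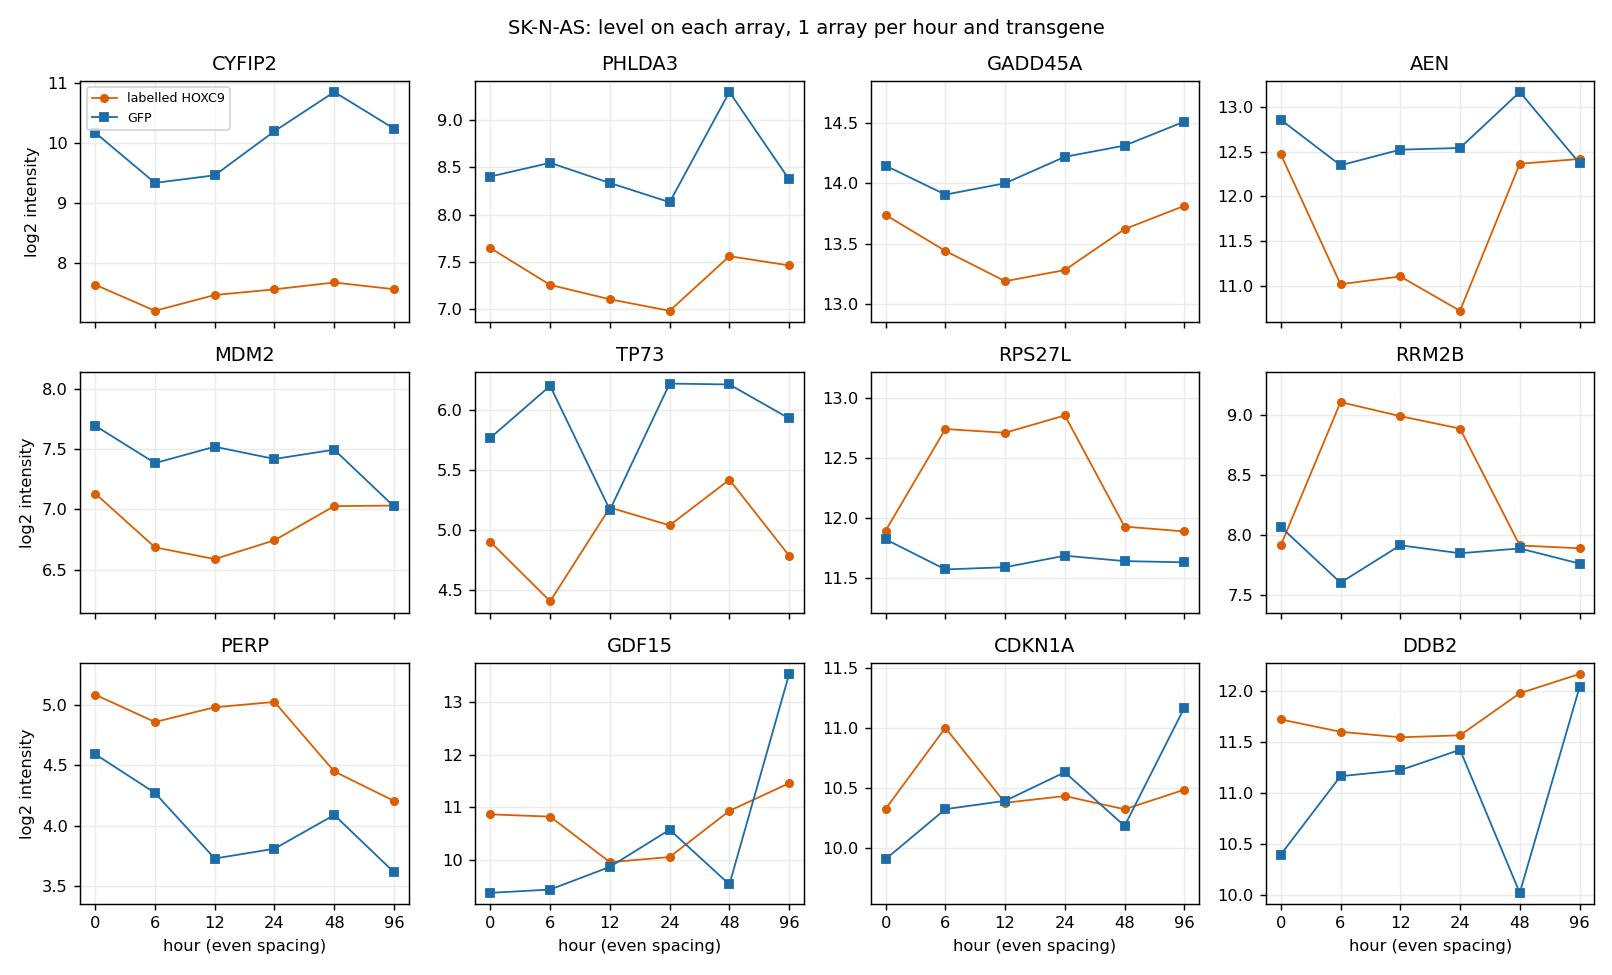
Level of 12 targets on each SK-N-AS array (log2 intensity, vertical axis) against the hour, drawn at even spacing, with 1 array per point. Circles are HOXC9-labelled arrays and squares GFP arrays. CYFIP2, PHLDA3 and GADD45A stay apart at every hour, AEN, RPS27L and RRM2B part mainly at 6 to 24 h, and GDF15 reaches 13.53 on the single GFP array of 96 h.

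The lower targets that held without the 6, 12 and 24 h arrays came from several roles. CYFIP2, a subunit of the WAVE complex that drives actin branching, read 7.64, 7.21, 7.47, 7.57, 7.68 and 7.57 in the HOXC9-labelled arrays. In the GFP arrays CYFIP2 read 10.17, 9.34, 9.46, 10.20, 10.85 and 10.24, higher at every hour. The CYFIP2 difference was -2.52 ± 0.14 (adjusted p = 7.25e-07), against -2.53 at 0 h and -2.92 over 48 and 96 h. The second CYFIP2 probe gave -0.65 ± 0.09 (adjusted p = 0.000361) and the dimmest one -0.02 ± 0.36 (adjusted p = 0.981). PHLDA3, which blocks the kinase AKT at the membrane, read 7.64, 7.25, 7.10, 6.98, 7.56 and 7.46 in the HOXC9-labelled arrays. The GFP arrays of PHLDA3 read 8.40, 8.55, 8.34, 8.13, 9.30 and 8.37, with the 48 h array highest. The arms were apart, with a difference of -1.27 ± 0.12 (adjusted p = 3.3e-05) and -1.33 over 48 and 96 h.

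GADD45A read 13.74, 13.44, 13.19, 13.28, 13.62 and 13.81 in the HOXC9-labelled SK-N-AS arrays and 14.15, 13.91, 14.00, 14.22, 14.31 and 14.51 in the GFP arrays. It was lower at every hour, with a difference of -0.72 ± 0.08 (adjusted p = 9.46e-05) and of -0.70 over 48 and 96 h. PLK3, a further polo-like kinase of the stress response, read 11.39, 11.02, 10.78, 10.59, 11.38 and 11.48 against 11.29, 11.15, 11.11, 11.11, 12.00 and 11.96. PLK3 differed by -0.42 ± 0.08 (adjusted p = 0.00315) and by -0.55 over 48 and 96 h, and its other probe gave -0.34 ± 0.11. Without the hour block the PLK3 call was lost (adjusted p = 0.0846). POLH read 7.39, 7.33, 7.36, 7.49, 7.30 and 7.25 against 7.37, 7.80, 7.62, 8.07, 7.76 and 7.95, level at 0 h and lower from 6 h on. The POLH difference was -0.50 ± 0.08 (adjusted p = 0.00109), and the mean of its probes did not pass (-0.24).

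4 members hold a match to the full 20-base p53 consensus, with no spacer, the core C and G of both 10-base units kept and at most 2 mismatches, in the 300 bases around one of their annotated starts. They are MDM2, DDB2, AEN and TP73. All but DDB2 were called lower in SK-N-AS at their brightest probes, as were 13 of the 35 members and 21.4% of all genes. None of these calls passed without the 6, 12 and 24 h arrays, a fit with fewer arrays that called fewer genes of any kind. The other MDM2 probe passed in the opposite direction. A link between the match and the level was not tested. Each match is shown from RefSeq (GRCh38.p14, plus strand) in capitals, with 30 bases to each side. In MDM2 (chr12:68808893-68808972) the match begins 94 bases before a start and has 2 mismatches. In DDB2 (chr11:47214939-47215018) it begins 5 bases before a start and has 1 mismatch, in AEN (chr15:88621276-88621355) 34 bases before with 2, and in TP73 (chr1:3690566-3690645) 76 bases before with 2.
MDM2: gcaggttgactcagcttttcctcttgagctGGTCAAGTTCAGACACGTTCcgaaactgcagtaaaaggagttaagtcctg
DDB2: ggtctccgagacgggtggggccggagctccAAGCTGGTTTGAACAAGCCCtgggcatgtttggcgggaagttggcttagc
AEN: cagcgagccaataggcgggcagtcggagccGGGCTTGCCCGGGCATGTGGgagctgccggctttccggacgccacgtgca
TP73: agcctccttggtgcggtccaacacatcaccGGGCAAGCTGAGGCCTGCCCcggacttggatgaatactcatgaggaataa

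Windows were found for 31 of the 35 members, all but RRM2B, TP53INP1, PHLDA3 and GADD45A. Of these, 12.9% hold the full match in any of their windows, on either strand, against 0.359% of 27303 genes with windows. The 10-base unit of the consensus, which may overlap a full match, is in the windows of 7 members (22.6%), namely SESN1, DDB2, PLK2, FDXR, AEN, RPS27L and EI24, and in 8.06% of all genes. Since the members were chosen as p53 targets, these shares describe the list and are no finding about the cells.

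AEN, a nuclease that degrades DNA in dying cells, read 12.47, 11.02, 11.10, 10.72, 12.36 and 12.42 in the HOXC9-labelled SK-N-AS arrays. In the GFP arrays AEN read 12.86, 12.35, 12.52, 12.54, 13.17 and 12.37, so the arm labelled HOXC9 was lower at every hour but 96 h, and most at 6 to 24 h. The difference was -1.07 ± 0.22 (adjusted p = 0.00345), made of -1.53 at 6 to 24 h and -0.38 at 48 and 96 h, where it did not pass (adjusted p = 0.249). The second AEN probe, at a mean of 10.06, gave 0.09 ± 0.17. TP73, the p53 relative that can bind the same sites, read 4.90, 4.41, 5.19, 5.04, 5.42 and 4.79 in the HOXC9-labelled arrays. The TP73 levels of the GFP arrays were 5.77, 6.20, 5.17, 6.22, 6.21 and 5.93, higher except at 12 h. TP73 differed by -0.98 ± 0.25 (adjusted p = 0.0108) and by -2.02 ± 0.43 at its dim other probe. It missed the threshold without the 6 to 24 h arrays (-0.97, adjusted p = 0.074), though its difference at 6 to 24 h was of like size (-0.98).

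Among the feedback regulators in SK-N-AS, MDM2 read 7.13, 6.68, 6.59, 6.74, 7.03 and 7.03 in the HOXC9-labelled arrays. In the GFP arrays MDM2 read 7.69, 7.38, 7.52, 7.42, 7.50 and 7.02, higher until 48 h and equal at 96 h. The MDM2 difference was -0.55 ± 0.12 (adjusted p = 0.0053) and -0.23 over 48 and 96 h, where it did not pass. Its other probe, dimmer at a mean of 4.93, passed in the opposite direction at 0.52 ± 0.08 (adjusted p = 0.000719), and the mean of both was -0.02. The direction of MDM2 in SK-N-AS thus differs by probe.

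MDM4 read 10.29, 10.51, 10.40, 10.53, 10.18 and 9.97 in the HOXC9-labelled arrays and 9.82, 9.69, 9.67, 9.76, 9.83 and 10.01 in the GFP arrays. It was higher until 48 h, by 0.53 ± 0.12 on average (adjusted p = 0.00599) and by 0.16 over 48 and 96 h, where it did not pass. The MDM4 call was also lost with the SK-N-AS arrays alone. The other MDM4 probes gave 0.24 ± 0.12 and 0.24 ± 0.12, neither of which passed. PPM1D read 10.18, 9.90, 10.05, 10.06, 10.09 and 10.14 against 10.56, 10.27, 10.47, 10.49, 10.34 and 10.20. CCNG1 read 11.23, 11.15, 11.15, 11.37, 11.20 and 11.25 against 11.49, 11.49, 11.66, 11.95, 11.18 and 11.78. Both were lower, with differences of -0.31 ± 0.07 for PPM1D (adjusted p = 0.00792) and -0.39 ± 0.11 for CCNG1 (adjusted p = 0.016), and both calls were lost without the 6, 12 or 24 h array in turn (adjusted p up to 0.0535 and 0.0692) and without all of them.

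The higher targets of SK-N-AS besides MDM4 are RRM2B, RPS27L, TRIAP1, PERP and DRAM1. RRM2B, a ribonucleotide reductase subunit that supplies nucleotides for repair, read 7.91, 9.10, 8.99, 8.88, 7.91 and 7.89 in the HOXC9-labelled arrays. RRM2B read 8.07, 7.60, 7.92, 7.85, 7.89 and 7.76 with GFP, so the arms differed at 6 to 24 h and were level at 0, 48 and 96 h. RRM2B differed by 0.75 ± 0.22 (adjusted p = 0.0191), with 1.20 at 6 to 24 h and 0.08 at 48 and 96 h, and it missed the threshold without the 6, 12 or 24 h arrays in turn (adjusted p up to 0.0913). RPS27L, a ribosomal protein relative that steadies p53 through MDM2, read 11.90, 12.74, 12.71, 12.86, 11.93 and 11.89 against 11.83, 11.58, 11.59, 11.69, 11.64 and 11.63. It too was separated mainly at 6 to 24 h, by 1.15, against 0.27 at 48 and 96 h and 0.80 ± 0.16 overall (adjusted p = 0.00279).

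TRIAP1, an inhibitor of apoptosis that moves lipids within mitochondria, read 12.13, 12.80, 12.84, 12.84, 12.22 and 12.09 in the HOXC9-labelled arrays and 12.47, 12.37, 12.28, 12.20, 12.03 and 12.10 in the GFP arrays. The TRIAP1 difference was 0.36 ± 0.10 (adjusted p = 0.0159), reached 0.54 at 6 to 24 h and was 0.09 at 48 and 96 h, and the same omissions lost its call (adjusted p up to 0.0871). PERP read 5.09, 4.86, 4.98, 5.03, 4.45 and 4.21 against 4.59, 4.27, 3.73, 3.81, 4.09 and 3.61. PERP was higher at each hour, by 0.80 ± 0.17 (adjusted p = 0.00458), but at low levels, and it missed the threshold with 50 units added (0.23, adjusted p = 0.0858) or without 6 to 24 h (0.48). DRAM1 read 9.53, 9.02, 9.02, 9.07, 9.41 and 9.73 against 8.66, 8.90, 8.99, 8.82, 8.85 and 8.97. The DRAM1 gap, 0.34 ± 0.11 (adjusted p = 0.0277), was wider at 48 and 96 h (0.66) and at 0 h (0.87) than at 6 to 24 h (0.13), and leaving out the 6, 24, 48 or 96 h arrays lost the call (adjusted p up to 0.0874).

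3 more SK-N-AS targets were lower. XPC read 9.03, 8.45, 8.64, 8.66, 9.06 and 9.16 in the HOXC9-labelled arrays and 9.33, 9.32, 9.25, 9.41, 9.32 and 9.32 in the GFP arrays. XPC arrays did not overlap, and the difference of -0.53 ± 0.11 (adjusted p = 0.00409) was -0.21 over 48 and 96 h, where it did not pass. TP53I3, a quinone oxidoreductase, read 14.33, 14.67, 14.56, 14.40, 14.19 and 14.16 against 14.77, 15.46, 15.20, 14.59, 15.09 and 14.24. It was lower at each hour, with a difference of -0.52 ± 0.12 (adjusted p = 0.00716). This averaged -0.54 at 6 to 24 h and -0.49 over 48 and 96 h, where it did not pass. The average over 48 and 96 h came mostly from the 48 h arrays, since the arms were nearly level at 96 h. PLK2 read 13.04, 12.21, 12.24, 12.29, 12.88 and 12.64 against 13.30, 13.22, 12.23, 12.74, 13.81 and 12.64. The PLK2 difference was -0.48 ± 0.16 (adjusted p = 0.0347), with arms level at 12 and 96 h, and without the 6 h arrays it was -0.34 (adjusted p = 0.164), a loss also seen without the 24 or 48 h arrays and without the hour block (adjusted p = 0.0864).

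Several SK-N-AS targets that did not pass varied widely over the hours. CDKN1A read 10.33, 11.00, 10.38, 10.43, 10.32 and 10.49 in the HOXC9-labelled arrays and 9.91, 10.32, 10.39, 10.63, 10.18 and 11.17 in the GFP arrays. The CDKN1A arms crossed, with the 6 h array high in the first and the 96 h array high in the second, for a mean difference of -0.02 ± 0.17 (adjusted p = 0.951). GDF15 read 10.87, 10.82, 9.96, 10.05, 10.93 and 11.46 against 9.37, 9.44, 9.87, 10.57, 9.53 and 13.53. Its GFP array of 96 h was far above the rest, and the mean difference was 0.06 ± 0.42. GADD45B read 9.84, 10.42, 9.73, 9.61, 9.84 and 10.60 against 10.16, 9.06, 9.11, 8.09, 12.57 and 9.42, with a single high GFP array at 48 h and a mean difference of 0.39 ± 0.53. DDB2 read 11.72, 11.60, 11.54, 11.56, 11.97 and 12.16 against 10.40, 11.16, 11.22, 11.42, 10.02 and 12.03. It was higher at each of the 5 hours in the HOXC9-labelled arrays, by 0.60 ± 0.23, which did not pass (adjusted p = 0.0573). TP53INP1, which promotes autophagy and cell death, read 10.92, 10.24, 10.52, 10.66, 11.02 and 11.20 against 10.95, 11.26, 11.40, 11.50, 10.42 and 11.07. It was lower at 6 to 24 h (-0.92) and higher at 48 and 96 h (0.36), for a mean difference of -0.40 ± 0.22.

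The other 11 SK-N-AS members that did not pass lay between -0.34 (FDXR) and 0.35 (TIGAR). The sestrins SESN1 (-0.11 ± 0.11), SESN2 (-0.21 ± 0.15) and SESN3 (0.08 ± 0.18), which restrain mTORC1, did not pass, nor did BTG2 (-0.22 ± 0.18), EI24 (0.13 ± 0.10), SFN (0.31 ± 0.31) or RPRM (-0.17 ± 0.47). ZMAT3 differed by 0.29 ± 0.12 (adjusted p = 0.0824). SPATA18 differed by -0.06 ± 0.45 at its brightest probe, with a low GFP array at 24 h, while its second probe gave -1.11 ± 0.20 (adjusted p = 0.00255) and the dimmest one -0.50 ± 0.44.

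The line comparison asks whether the difference between the transgene labels was the same in both lines. It differed for 18 of the 35 members, 5 of them higher in SK-N-AS relative to IMR-32 (GADD45B, GDF15, MDM4, RPS27L and TIGAR) and 13 lower. Over all genes 20.1% were higher and 20.5% lower. The members' median was -0.38 and that of all genes -0.03. Of the 35, 5 were called in both lines, 4 in IMR-32 alone, 14 in SK-N-AS alone and 12 in neither. PERP and DRAM1 were higher in both lines, and PLK2, POLH and GADD45A were called in opposite directions. Of all genes, 12.6% were higher and 11.4% lower in IMR-32, and 20.8% and 21.4% in SK-N-AS. The overlap of calls over all genes is not given here, so this split is no finding about the members.

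RPRM had the most negative difference between lines, -7.20 ± 0.66 (adjusted p = 2.38e-05), followed by PLK2 at -2.81 ± 0.22 (adjusted p = 8.85e-06) and PERP at -2.81 ± 0.24 (adjusted p = 1.6e-05). CYFIP2, called in SK-N-AS alone, differed between lines by -2.62 ± 0.20, PHLDA3 by -1.32 ± 0.18, GADD45A by -1.12 ± 0.12, AEN by -1.11 ± 0.31, TP73 by -1.06 ± 0.35 and POLH by -0.99 ± 0.12. DRAM1 (-0.74 ± 0.15), MDM2 (-0.55 ± 0.17), PLK3 (-0.55 ± 0.12) and PPM1D (-0.29 ± 0.10, adjusted p = 0.044) complete the 13. In the other direction TIGAR differed by 3.55 ± 0.45 (adjusted p = 0.000194), GADD45B by 2.33 ± 0.75, GDF15 by 2.08 ± 0.59, RPS27L by 0.77 ± 0.22 and MDM4 by 0.77 ± 0.17. Without the 6, 12 and 24 h arrays of SK-N-AS, 1 member was higher (TIGAR) and 9 were lower (CYFIP2, DRAM1, GADD45A, PERP, PHLDA3, PLK2, PLK3, POLH and RPRM), against 14.2% and 15.8% of all genes. MDM2 missed the threshold there and had the opposite sign with the mean of its probes. Its other probe was relatively higher in SK-N-AS (0.68 ± 0.11, adjusted p = 0.00119), so the direction depends on the probe. The other GADD45B probe showed no line difference past the threshold (-0.15 ± 0.61, adjusted p = 0.866), nor did GADD45B with 16 units added (1.02), with 50 units added (0.62) or as the mean of its probes (1.09). Other probes also missed it for AEN (-0.25 ± 0.24), POLH (-0.04 ± 0.49) and TIGAR (0.98 ± 0.49), and passed in the same direction for PLK3 (-0.50 ± 0.16) and TP73 (adjusted p = 0.0268). Genes with more than 1 other probe were divided, with CYFIP2 at -0.67 ± 0.12 (passed) and 0.07 ± 0.51, DRAM1 at -0.70 ± 0.14 (passed) and -0.32 ± 0.59, and MDM4 at 0.17 ± 0.17 and 0.54 ± 0.16 (passed). Leaving out 1 hour at a time lost the line difference of MDM2, AEN and RPS27L (6, 12 or 24 h, adjusted p up to 0.127, 0.0735 and 0.102), of GDF15 and PPM1D (6, 12, 24 or 48 h, up to 0.075 and 0.184), of GADD45B (6, 12, 24 or 96 h, up to 0.126) and of TP73 (6, 48 or 96 h, up to 0.155).

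The GFP arrays alone show how the lines differ with the control transgene. Of the 35 targets, 14 were higher in SK-N-AS and 13 lower, 15 of these by at least 2-fold, and 8 did not pass. Over all genes 38.3% were higher and 29.7% lower, and the median difference was 0.16 for the members and 0.13 for all genes. The counts ranged from 14 to 16 higher and from 13 to 14 lower when each hour was left out in turn.

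**Figure D4:**
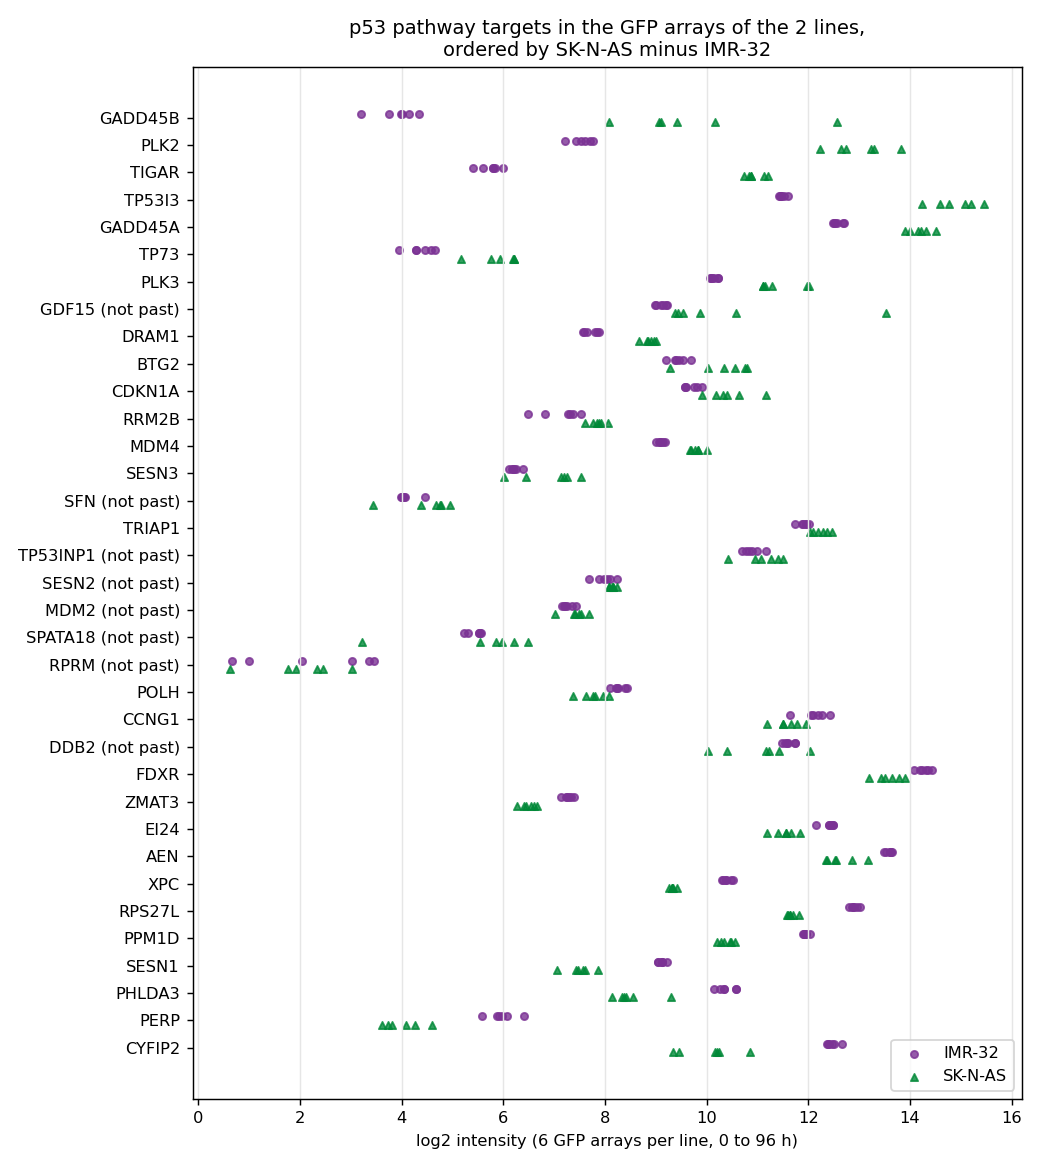
Level of the 35 targets on the 6 GFP arrays of each line (log2 intensity, horizontal axis), ordered by the SK-N-AS minus IMR-32 difference, with 1 point per array and "not past" beside genes that did not pass the test. Circles are IMR-32 and triangles SK-N-AS. GADD45B, PLK2 and TIGAR are over 5 units higher in SK-N-AS, and CYFIP2, PERP and PHLDA3 are about 2 units lower.

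GADD45B was higher in the SK-N-AS GFP arrays by 5.83 ± 0.52 (adjusted p = 6.03e-05), PLK2 by 5.45 ± 0.20 (adjusted p = 8.64e-07) and TIGAR by 5.20 ± 0.12 (adjusted p = 1.05e-07). With 50 units added GADD45B differed by 3.82, and its other probe gave 1.97 ± 0.46 (adjusted p = 0.00833), a much smaller difference in the same direction. The other TIGAR probe gave 6.43 ± 0.44. TP53I3 followed at 3.41 ± 0.17, its IMR-32 GFP arrays reading 11.47, 11.43, 11.42, 11.52, 11.60 and 11.47. No TP53I3 value of one line came within 2 units of the other line's. GADD45A (1.61 ± 0.09), TP73 (1.54 ± 0.17), PLK3 (1.3 ± 0.16) and DRAM1 (1.15 ± 0.10) were also at least 2-fold higher in SK-N-AS. Other probes, where there were any, passed in the same direction, at 2.25 ± 0.31 for TP73, 0.51 ± 0.10 for PLK3, and 1.03 ± 0.08 and 2.74 ± 0.52 for DRAM1.

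On the IMR-32 side, CYFIP2 differed by -2.43 ± 0.19 (adjusted p = 3.49e-05), with IMR-32 GFP arrays at 12.67, 12.38, 12.40, 12.38, 12.47 and 12.51. Its other probes differed more, by -5.19 ± 0.11 and -4.98 ± 0.22. PERP differed by -1.96 ± 0.14, PHLDA3 by -1.86 ± 0.13, PPM1D by -1.55 ± 0.07, RPS27L by -1.24 ± 0.07 and XPC by -1.07 ± 0.07. SESN1 read 9.05, 9.11, 9.11, 9.22, 9.05 and 9.12 in IMR-32 and 7.86, 7.46, 7.42, 7.57, 7.61 and 7.05 in SK-N-AS. SESN1 values did not overlap between lines, with a difference of -1.62 ± 0.12 (adjusted p = 2.08e-05).

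The smaller called differences between the lines were seen in genes of each role. CDKN1A was higher in SK-N-AS by 0.73 ± 0.20 (adjusted p = 0.0141), BTG2, an antiproliferative adaptor of mRNA decay, by 0.85 ± 0.23, RRM2B by 0.72 ± 0.19, MDM4 by 0.70 ± 0.07 and TRIAP1 by 0.34 ± 0.08. SESN3, a further sestrin, ranged from 6.12 to 6.40 in IMR-32 and from 6.01 to 7.52 in SK-N-AS, ranges that overlap, with a difference of 0.70 ± 0.20 (adjusted p = 0.0166). EI24, a membrane protein of the endoplasmic reticulum needed for autophagy, was lower in SK-N-AS (difference -0.86 ± 0.09), with ranges of 12.15 to 12.49 and 11.19 to 11.84. ZMAT3, an RNA-binding protein that steers splicing, differed by -0.78 ± 0.08, from 7.14 to 7.40 against 6.28 to 6.66. FDXR, a mitochondrial electron carrier, ranged from 14.07 to 14.43 against 13.20 to 13.90 and differed by -0.69 ± 0.12. AEN (-0.95 ± 0.11), CCNG1 (-0.51 ± 0.10) and POLH (-0.51 ± 0.13) were lower too. RPRM, MDM2, GDF15, SESN2, TP53INP1, DDB2, SPATA18 (a mitochondrial quality control protein) and SFN (stratifin, which sequesters cell cycle kinases) did not pass at their brightest probes. The second SPATA18 probe did, at -1.76 ± 0.34 (limma, adjusted p = 0.00349), and its dimmest gave -0.04 ± 0.59. Other MDM4 probes gave 0.45 ± 0.08 (passed) and 0.06 ± 0.07 (adjusted p = 0.526). Those of CDKN1A (0.68 ± 0.23) and AEN (-0.45 ± 0.11) passed in the same direction, while that of POLH (-0.94 ± 0.53) did not pass. With the HOXC9-labelled arrays in place of GFP, PERP differed by -4.89 and PLK2 by 2.68 between the lines.

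No trend over the hours passed the test for any member. The trend of the HOXC9 minus GFP difference on log2(1 + h/6), fitted with limma, called 0 members in IMR-32, 0 in SK-N-AS and 0 over the hours in the GFP arrays, as for all genes (0%, 0% and 0%). At an unadjusted p under 0.05 there were 1, 5 and 1 members among 413, 1205 and 502 genes. TIGAR had a slope of -0.41 ± 0.18 per unit in IMR-32. In SK-N-AS the slopes were -0.26 ± 0.08 for CDKN1A, -0.67 ± 0.22 for GDF15, -0.16 ± 0.05 for PLK3, -0.14 ± 0.06 for POLH and 0.73 ± 0.28 for RPRM, and in the GFP arrays -0.07 ± 0.02 for TRIAP1. Single arrays lay far from the rest for TIGAR (IMR-32 HOXC9 at 96 h, 0.49), GDF15 (SK-N-AS GFP at 96 h, 13.53) and CDKN1A (SK-N-AS HOXC9-labelled at 6 h, 11.00). RPRM lay in the lower quartile of intensities on all SK-N-AS arrays. Over the 6 hours the median range of a member was 0.36 in the HOXC9 and 0.33 in the GFP arrays for IMR-32, against 0.71 and 0.82 for SK-N-AS.

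Other genes of the pathway were examined as 4 further lists, against the same shares of all genes. Whether their SK-N-AS calls hold over 48 and 96 h alone is not given here, and only mean differences are shown for those hours. Of 18 measured regulators of p53, 2 were higher and 0 lower in IMR-32, with a median of -0.05. These were CDKN2A, whose ARF product inhibits MDM2 (0.72 ± 0.15, adjusted p = 0.0062), and the acetyltransferase CREBBP (0.37 ± 0.11). At an unadjusted p under 0.05, limma gave 3 of the 18, against 36.6% of all genes. In SK-N-AS 7 regulators were higher, among them the damage kinase ATM (0.99 ± 0.18) and the p53 partner TP53BP1 (0.49 ± 0.08). The 4 lower ones included DAXX (-1.10 ± 0.15, adjusted p = 0.000286) and PPP1R13L (-0.67 ± 0.10), an inhibitor of p53. Over 48 and 96 h ATM averaged 0.57, TP53BP1 0.41, DAXX -0.63 and PPP1R13L -0.49.

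Of 11 measured targets of cell death, 1 was higher in IMR-32, the death receptor TNFRSF10B (0.35 ± 0.07, adjusted p = 0.0041), and 1 lower, AIFM2 (-1.31 ± 0.10, adjusted p = 9.7e-06). AIFM2, a membrane oxidoreductase, was higher in SK-N-AS (1.07 ± 0.10), as was BBC3, the BH3 protein PUMA (1.16 ± 0.27). BAX, BAK1 (-0.81 ± 0.08) and PMAIP1, the BH3 protein NOXA (-1.09 ± 0.17), were lower there. Over 48 and 96 h of SK-N-AS the mean differences were 1.20 for AIFM2 and 0.53 for BBC3. Those of BAK1, PMAIP1 and BAX were -0.79, -0.53 and 0.01. In the HOXC9-labelled arrays BBC3 stood at 15.13, 16.02, 15.89, 16.01, 15.14 and 14.13, with the 6, 12 and 24 h arrays highest.

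Of 31 further targets, 6 were higher and 6 lower in IMR-32 and 10 higher and 6 lower in SK-N-AS. TP53I11 (1.61 ± 0.16) and ZNF385A (0.83 ± 0.14), a regulator of mRNA transport that binds p53, led the higher ones in IMR-32 by p. KLF4, a zinc finger transcription factor, was lower in IMR-32 (-1.69 ± 0.20, adjusted p = 0.000192) and higher in SK-N-AS (1.99 ± 0.20, adjusted p = 3.57e-05). STEAP3, a metalloreductase of iron uptake (1.88 ± 0.12), and TLR3, a receptor for double-stranded RNA (1.73 ± 0.17), were higher in SK-N-AS. Over 48 and 96 h of that line KLF4 averaged 1.69, STEAP3 1.53 and TLR3 1.75. Of 13 cell cycle genes that p53 lowers through p21 and the DREAM complex, 1 was higher in IMR-32, CDC20 (0.36 ± 0.09), and 0 were lower. In SK-N-AS 0 were higher and 6 lower, BIRC5, CCNA2 (-0.52 ± 0.09), CDC25C, CENPA (-0.66 ± 0.13), MYBL2 (-0.59 ± 0.12) and PLK1 (-0.35 ± 0.09). The list median there was -0.35 against -0.02 for all genes. Over 48 and 96 h BIRC5 averaged -0.10, PLK1 -0.15, CENPA -0.29, MYBL2 -0.35, CDC25C -0.37 and CCNA2 -0.60. CDKN1A, which acts upstream of that complex, did not pass in either line (IMR-32 0.32 ± 0.17, SK-N-AS -0.02 ± 0.17).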

How the data were processed

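Per the labels' protocols, RNA of checked integrity was amplified and labelled with Cy3 by an Agilent one-colour kit. The authors deposited 1 table of fluorescence intensity, 1 column per array. The submitters' processing notes name limma without its role, and background correction and normalization are not given in the sources used here. The intensities of 44708 features ran from 1.32 to 309395, and the arrays differed by at most 0.0723% at any rank, so the values had been brought to 1 common distribution before deposit, which hides a shift of most genes in 1 direction. The design had foreseen log2 values, so log2 was taken here with no offset. Of the features, 27942 have 1 gene symbol in the platform annotation and 16766 have none. Symbols were updated through RefSeq (14295 current, 2937 updated, 129 ambiguous, 9 not found), and the brightest probe of each of 17199 genes was used, 7572 of which have others.

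Levels were tested with limma 3.58.1 in R 4.3.3 (lmFit and eBayes, Benjamini-Hochberg over all genes, threshold 0.05; tables and figures with Python 3.11.15). One fit took the 20 arrays of 6 to 96 h with line and hour as a block and the transgene effect within each line, and their difference was the line comparison. The GFP arrays of both lines (12) were fitted with the hour as a block. Trends used log2(1 + h/6), over all 24 arrays for the HOXC9 minus GFP difference and over the 12 GFP arrays for the levels with GFP. The block pairs arrays by the labelled hour. The script was tested on simulated data. No filter on low values was applied, and 26 of the 35 members lay above the 40th percentile of gene means. The members named were all that passed, and the remainder are given by values or range. The members and lists were chosen with earlier results of these data known, so no count here is independent support for them. Alternatives were offsets of 16 and 50 units, the mean of all probes, dim genes left out, array weights, trend and robust eBayes, no hour block, each line alone, 0 h included or subtracted, each hour left out, and the 6, 12 and 24 h arrays of SK-N-AS left out or used alone.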

Additional observations from a re-analysis of the deposited data

Results flagged for a closer look

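The transgene difference was not the same in the lines for 18 members by the interaction term (SK-N-AS minus IMR-32, log2). Relatively lower in SK-N-AS were RPRM (-7.20), PLK2 (-2.81), PERP (-2.81), CYFIP2 (-2.62), PHLDA3 (-1.32), GADD45A (-1.12), AEN (-1.11), TP73 (-1.06), POLH (-0.99), DRAM1 (-0.74), MDM2 (-0.55), PLK3 (-0.55) and PPM1D (-0.29). TIGAR (3.55), GADD45B (2.33), GDF15 (2.08), RPS27L (0.77) and MDM4 (0.77) were relatively higher. The other probe of MDM2 went the opposite way (0.68 ± 0.11, adjusted p = 0.00119), and that of GADD45B did not pass (-0.15 ± 0.61). The HOXC9-labelled SK-N-AS arrays had less HOXC9 signal than their controls, and the 6, 12 and 24 h arrays of that arm stood apart, so how far these differences follow the transgene was not tested.

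In 9 of 140 combinations of member, line and transgene 1 array lay far from the other 5 (Dixon's test at the 5% level, so that chance flags about 1 in 20). In SK-N-AS, GDF15 reached 13.53 on the GFP array of 96 h against 9.37 to 10.57 on the others, and PHLDA3 reached 9.30 on that of 48 h against 8.13 to 8.55. SPATA18 stood at 3.23 on the GFP array of 24 h against 5.54 to 6.49, and CDKN1A reached 11.00 on the 6 h array labelled HOXC9 against 10.32 to 10.49. In the IMR-32 HOXC9 arrays TIGAR was 0.49 at 96 h against 2.60 to 3.35, DRAM1 was 8.62 at 6 h against 8.78 to 8.84, and TP73 was 3.76 at 24 h against 4.51 to 4.71. In the IMR-32 GFP arrays SFN was 4.46 at 48 h against 3.98 to 4.06, and EI24 was 12.15 at 24 h against 12.40 to 12.49.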

How the results depend on the processing

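Each combination of line, transgene and hour has 1 array, intensities carry no detection call, and members near the lower quartile (RPRM, TIGAR, GADD45B and PERP) have folds set by dim signal. In IMR-32 the 6 higher members became 12 with array weights and 11 with that line alone, and the 3 lower became 6 with either; leaving out each hour gave 6 to 7 higher and 2 to 3 lower. In SK-N-AS the 6 higher became 2 with that line alone and 1 without the 6, 12 and 24 h arrays, and the 13 lower became 5 without these; leaving out each hour gave 3 to 8 higher and 10 to 15 lower. The line difference (5 higher, 13 lower) became 8 and 20 with array weights, 1 higher without the 6, 12 and 24 h arrays of SK-N-AS and 8 higher with only those, and 2 to 5 higher and 9 to 15 lower on leaving out each hour. For the GFP arrays between lines the counts (14 and 13) were 14 to 16 and 13 to 14 by hour left out and 15 and 16 with the HOXC9-labelled arrays. The SK-N-AS trend called 1 member without the 0 h arrays. Without the replicate block (no hour block) the counts were 6 and 4 for IMR-32, 6 and 11 for the other line, 5 and 14 for the line difference and 14 and 13 between lines. Shares of all genes under these settings are given only for the fits without the 6, 12 and 24 h arrays of SK-N-AS. Elsewhere a changed count is therefore no finding about the members.

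Subtracting the 0 h difference, which rests on 1 array per arm, left 0 members called in IMR-32, SK-N-AS and the line difference in either direction (limma; 0, 3 and 1 at an unadjusted p under 0.05). The share of all genes called in that setting is not given here. The count of 0 therefore cannot tell lost differences from a fit that calls few genes at all. The subtraction turned GDF15 (0.12) and PERP (-0.46) for IMR-32, and MDM2 (0.0089), PPM1D (0.072), CYFIP2 (0.010) and DRAM1 (-0.53) in SK-N-AS. In the line difference it turned MDM2 (0.0185), MDM4 (-0.058), GDF15 (-1.56), PPM1D (0.034), RPRM (1.37) and PERP (0.77). The mean of all probes turned the line difference of MDM2 (0.062), and the HOXC9-labelled arrays in place of GFP turned MDM2 (-0.40) and TP53INP1 (-0.40) between the lines. The cause was not tested.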
